A study of Bos taurus with 34 samples.

Results

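NF-kB is a family of transcription factors that switch on inflammatory and survival genes. The 10 genes described here encode its 5 subunits (NFKB1, NFKB2, REL, RELA and RELB) and 5 genes that the factor itself induces and that mostly restrain it (NFKBIA, NFKBIE, NFKBIZ, TNFAIP3 and BIRC3). They were listed by name and found by symbol in the authors' comparison of slick with free cattle, and their Ensembl identifiers were found in both count tables. All 10 were among the 14161 genes listed in that comparison, out of 27607 genes in the count tables.

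The series holds 34 liver samples of Senepol cattle, by the breed label, in 2 experiments. In the TruSeq experiment, 10 samples are labelled SLICK (daughters with 1 copy of the SLICK1 allele of PRLR, which shortens the prolactin receptor) and 8 are labelled FREE (daughters with 0 copies). Both genotypes were sired by the slick bulls Blanco and Lone Ranger. The SLICK group has 5 daughters of each bull, and the FREE group has 7 of Lone Ranger and 1 of Blanco. Sire and genotype are therefore partly confounded; no source used here says if sire was a term of the authors' model. In the SMARTer experiment, 5 animals carried 1 copy (S1) and 11 carried 2 copies (S2). Age, sex of the SMARTer animals and housing are not given in the labels. Each library column is headed by an animal number that the sample labels lack. Values by animal, depth per library and the comparison of S2 with S1 are for that reason not analysed here, and every result is from the authors' deposited table of SLICK against FREE. The comparison and the TruSeq counts are each headed by 18 animal numbers, of which 17 are shared and 1 is in each alone. It is therefore not known if the comparison was made on exactly the 18 labelled TruSeq samples. A negative log2 fold change is read as lower in SLICK, from the name of that table.

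In resting cells, NF-kB dimers are held in the cytoplasm by inhibitors of the IkB family. In the canonical pathway, signals from tumour necrosis factor, interleukin 1 or endotoxin make the IkB kinase complex mark the inhibitors for destruction, and dimers of RELA with the p50 product of NFKB1 enter the nucleus. In the non-canonical pathway, receptors such as CD40 and the lymphotoxin beta receptor stabilise the kinase MAP3K14 (also called NIK), which leads to processing of the NFKB2 product and release of its dimers with RELB. In liver, hepatocytes, Kupffer cells, bile duct cells and endothelial cells all use the pathway, and it is known for driving acute inflammation and for protecting hepatocytes from cell death.

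RELB, the main partner of NFKB2 in the non-canonical pathway, was the 1 member called at an adjusted p of 0.05. It was lower in SLICK by 0.69 log2 units (1.61-fold) per the authors' deposited table. The other 4 subunits also had negative values there, but none passed an adjusted p of 0.05. Among the 5 feedback genes, NFKBIA, NFKBIE, TNFAIP3 and BIRC3 had negative values and NFKBIZ a value near 0, and none passed. Of the 10 members, 9 were negative, against 51.8% of all genes. The median log2 fold change was -0.29 over the 10 members and -0.01 over all genes of the authors' deposited table. At an adjusted p of 0.05, 1 of the 10 members was called, against 0.501% of all genes. At an unadjusted p of 0.05, 6 of the 10 were lower in SLICK and 0 were higher, against 8.79% of all genes lower and 7.22% higher. These members were chosen with earlier results of the same comparison known, so the counts describe them and test nothing. Bulk liver RNA cannot tell fewer cells of a type from less RNA in each cell.

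**Figure D1:**
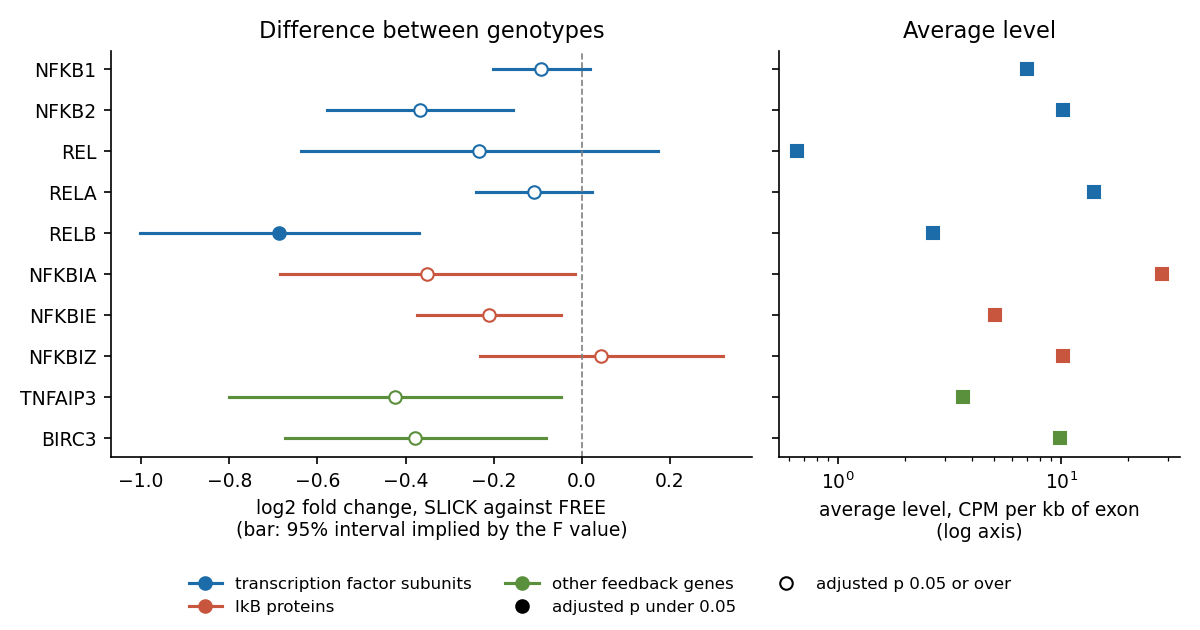
Left, log2 fold change of each member from the authors' deposited table, SLICK against FREE, with the 95% interval implied by the F value; right, average level over the libraries in CPM per kb of exon on a log axis. RELB is the filled point at -0.69, and 6 of the 10 intervals lie below 0.

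On the ARS-UCD1.2 assembly, RELB (ENSBTAG00000038428) spans chromosome 18 from 52695747 to 52724172, + strand, with 11 exon blocks and 2313 bases of exon in Ensembl release 100. The authors' deposited table gives a log2 fold change of -0.69, and its F of 20.7 implies a standard error of 0.15. Standard errors and intervals here and for the other genes were computed from the deposited F in this way. The 95% interval made from these ran from 0.499 to 0.773 of the FREE level, with its upper bound at -0.37 log2 units. The authors' deposited table lists a p of 2.26e-04 and an adjusted p of 0.0486 for it. RELB thus sat at the edge of the threshold: it had rank 70 by p among the 14161 genes listed, of which 71 were called. That adjusted p was held by 41 of the genes listed, RELB among them. Next in the authors' deposited table came an adjusted p of 0.0511. With fold changes centred within 10 classes of average level, the value was -0.65 and the adjusted p 0.0552, so the call did not hold there. The same adjustment, over the 14161 genes, gave 0.0452 without centring.

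NFKB2 encodes the p100 precursor, which restrains RELB until it is processed to p52. It lies on chromosome 26 from 23019572 to 23026090 on the + strand (ENSBTAG00000006017), with 22 exon blocks. The log2 fold change of NFKB2 was -0.37 (implied standard error 0.10, interval -0.58 to -0.16) per the authors' deposited table. With a p of 0.00170 and an adjusted p of 0.0893 it was the member nearest to the threshold after RELB, and it passed at 0.10. At that threshold 2 of the 10 members were called, against 2.77% of all genes.

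Among the subunits, the canonical pair had the values nearest to 0. RELA, the activating subunit of the canonical dimer (chromosome 29, 43830884 to 43840041, - strand, ENSBTAG00000013895), had a log2 fold change of -0.11 per the authors' deposited table. Its interval ran from -0.24 to 0.02 and its adjusted p was 0.433. NFKB1, which encodes p105 and p50 (chromosome 6, 22205847 to 22328613, - strand, ENSBTAG00000020270), had a value of -0.09 per the authors' deposited table, with an interval from -0.20 to 0.02 and an adjusted p of 0.429. These were the narrowest intervals of the 10 members: a fall below 0.846 of the FREE level for RELA, or below 0.869 for NFKB1, lies outside them. REL, a subunit best known in lymphocytes (chromosome 11, 43625180 to 43662860, + strand, ENSBTAG00000015386), had the widest interval, from -0.64 to 0.17 around -0.23, and an adjusted p of 0.628 per the authors' deposited table. REL was also the least abundant member, with an average of 0.53 log2 CPM in that table. Whether the fold change of RELB differs from that of RELA was not tested, since the values share the same libraries and no library could be used.

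The IkB proteins bind NF-kB dimers, and their genes are induced by the factor. NFKBIA encodes IkB alpha, the inhibitor that is destroyed and made anew in each round of signalling (chromosome 21, 45639133 to 45643131, - strand, ENSBTAG00000016683). Its log2 fold change was -0.35 (implied standard error 0.16, interval -0.69 to -0.02) with an adjusted p of 0.296 per the authors' deposited table. NFKBIE encodes IkB epsilon, a slower inhibitor (chromosome 23, 17764635 to 17771918, - strand, ENSBTAG00000013705). It had a smaller log2 fold change of -0.21 but a narrower interval, from -0.37 to -0.05, with an adjusted p of 0.190 per the authors' deposited table. NFKBIZ encodes IkB zeta, a nuclear family member that helps to induce a second set of inflammatory genes (chromosome 1, 46190242 to 46201247, + strand, ENSBTAG00000010987). Its log2 fold change of 0.04 was the 1 positive value among the members, with an interval from -0.23 to 0.32 and an adjusted p of 0.919 per the authors' deposited table.

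TNFAIP3 and BIRC3 act on the ubiquitin chains that carry the signal. TNFAIP3 encodes A20, a ubiquitin-editing enzyme that ends tumour necrosis factor and Toll-like receptor signalling (chromosome 9, 75740934 to 75756753, + strand, ENSBTAG00000000436). After RELB it had the most negative log2 fold change, -0.42, with an interval from -0.80 to -0.05 and an adjusted p of 0.256 per the authors' deposited table. BIRC3 encodes cIAP2, a ubiquitin ligase that protects cells from death and, with TRAF2 and TRAF3, keeps MAP3K14 low (chromosome 15, 6392614 to 6406143, - strand, ENSBTAG00000024918). Its log2 fold change was -0.38, with an interval from -0.67 to -0.08 and an adjusted p of 0.194 per the authors' deposited table. Its close paralog BIRC2, which encodes cIAP1, lies 27388 bases away on the same chromosome and strand. For BIRC2 the log2 fold change was -0.06 (adjusted p = 0.800) per the authors' deposited table. Reads shared by these copies could make either value uncertain, which was not tested. Of the 10 members, 1 (REL) overlaps another annotated gene, a microRNA gene on its own strand, and 0 overlap a gene on the opposite strand.

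**Figure D2:**
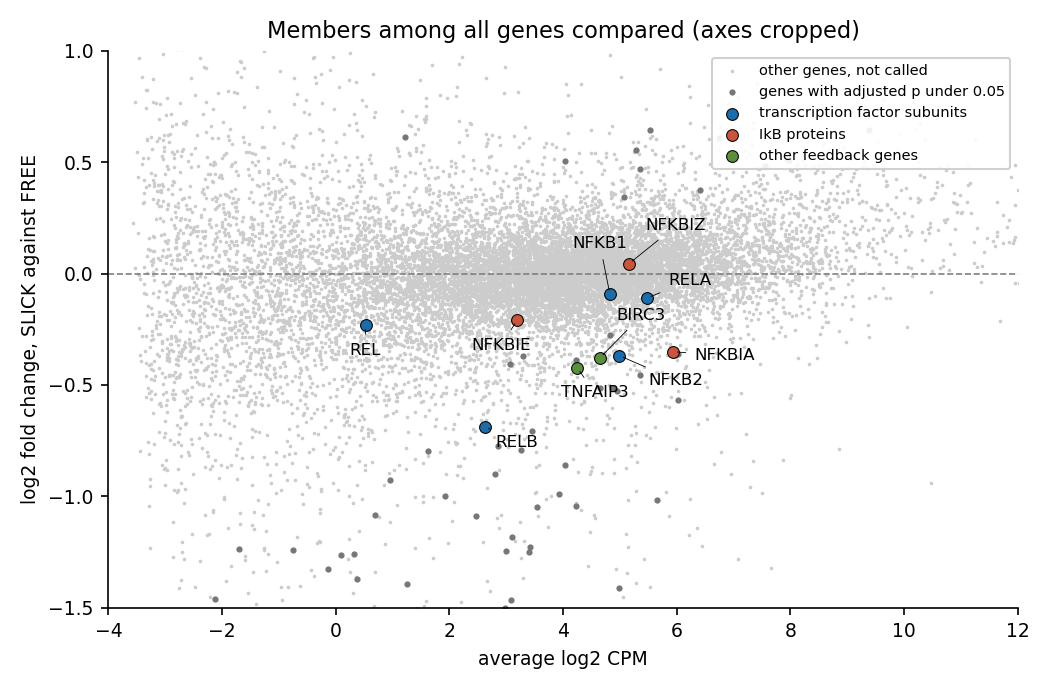
Log2 fold change of all genes from the authors' deposited table (vertical axis, SLICK against FREE) against their average log2 CPM (horizontal axis), with the members in colour; both axes are cropped and some genes lie outside. RELB lies at -0.69, and the other members lie between -0.42 and 0.04, at levels from 0.53 to 5.94 log2 CPM.

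Levels per length gave the order of abundance, on the scale of average CPM per kb of exon from the authors' deposited table. NFKBIA was highest at 28.1 CPM per kb, followed by RELA at 14.1. NFKBIZ and NFKB2 both stood at 10.2, and BIRC3 at 9.89. NFKB1 had 7.06, NFKBIE 5.04 and TNFAIP3 3.63 CPM per kb in the same table. The 2 lowest were RELB at 2.66 and REL at 0.657, so the members spanned a 42.9-fold range. The spread of these levels over animals is not used here, so neighbours in this order cannot be ranked against their error. The subunit that passed was thus the second least abundant member, and by average log2 CPM it stood at percentile 35.6 of all genes compared.

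The rest of the pathway was read from 4 lists with 98 genes, of which 93 had a row of their own among the genes compared. In the authors' deposited table none of the 93 passed an adjusted p of 0.05, a threshold that 0.501% of all genes passed, and the smallest was 0.0511. At that background share, a count of 0 among 93 genes says little. At an unadjusted p of 0.05, 23 were lower and 2 were higher in SLICK per the authors' deposited table, and the median log2 fold change was -0.08. Of all genes, 8.79% were lower and 7.22% higher at that threshold, and the counts of each list below are to be read against these shares. TNFSF11, EDA2R, CXCL2, IL6 and MMP9 were the 5 listed genes not in that table.

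Of 17 receptors and ligands upstream of the factor, 6 were lower and 0 higher at an unadjusted p of 0.05, with a median of -0.11 per the authors' deposited table. TNFRSF12A, the receptor of the cytokine TWEAK and an activator of the non-canonical pathway, had the largest difference. Its log2 fold change was -2.07 (interval -3.03 to -1.10, adjusted p = 0.0511) per the authors' deposited table. The ligand TNFSF13B, known as BAFF, had a log2 fold change of -0.53 (adjusted p = 0.0945) and the receptor CD40 one of -0.43 (adjusted p = 0.122) per the authors' deposited table. The main tumour necrosis factor receptor TNFRSF1A had a value of -0.18 log2 units (adjusted p = 0.196) per the authors' deposited table.

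Among 28 upstream kinases, adaptors and ubiquitin ligases, 4 were lower and 0 higher at an unadjusted p of 0.05, with a median of -0.06 per the authors' deposited table. The adaptor TRAF3, which takes part in the destruction of MAP3K14, had a log2 fold change of -0.36 (interval -0.55 to -0.17, adjusted p = 0.0743). MAP3K14 itself had a log2 fold change of -0.30 (adjusted p = 0.150) per the authors' deposited table. The kinase IKBKE had -0.31 (adjusted p = 0.168) and the signalling kinase RIPK1 had -0.14 (adjusted p = 0.255) as log2 fold changes per the authors' deposited table. The subunits of the IkB kinase complex, named after their values were seen, lay near 0. By the authors' deposited table, their log2 fold changes were 0.00 for CHUK (interval -0.16 to 0.17), 0.02 for IKBKB (-0.14 to 0.17) and -0.04 for IKBKG (-0.22 to 0.14).

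Of 21 other IkB proteins and negative regulators, 3 were lower and 0 higher at an unadjusted p of 0.05, with a median of -0.05 per the authors' deposited table. ZC3H12A, an RNase that destroys cytokine transcripts, had a log2 fold change of -0.61 (adjusted p = 0.0979) per the authors' deposited table. BCL3, a nuclear IkB protein, had -0.48 (adjusted p = 0.137), IRAK3, a brake on Toll-like receptor signalling, had -0.29 (adjusted p = 0.170), and NKIRAS2 had 0.06 (adjusted p = 0.610) as log2 fold changes per the authors' deposited table.

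Target genes of the factor had the lowest median of the 4 lists, -0.23 over 27 genes per the authors' deposited table, with 10 lower and 2 higher at an unadjusted p of 0.05. The monocyte chemokine CCL2 stood at 0.499 of the FREE level (interval -1.54 to -0.46 log2 units, adjusted p = 0.0786) per the authors' deposited table. The dendritic cell marker CD83 had -0.41 (adjusted p = 0.178) and the survival gene BCL2L1 had -0.23 (adjusted p = 0.187) as log2 fold changes per the authors' deposited table. SOD2, the mitochondrial superoxide dismutase, had the opposite sign, with a log2 fold change of 0.30 (adjusted p = 0.115) per the authors' deposited table. The targets thus did not all share a sign: 19 of the 27 values were negative and 8 positive.

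**Figure D3:**
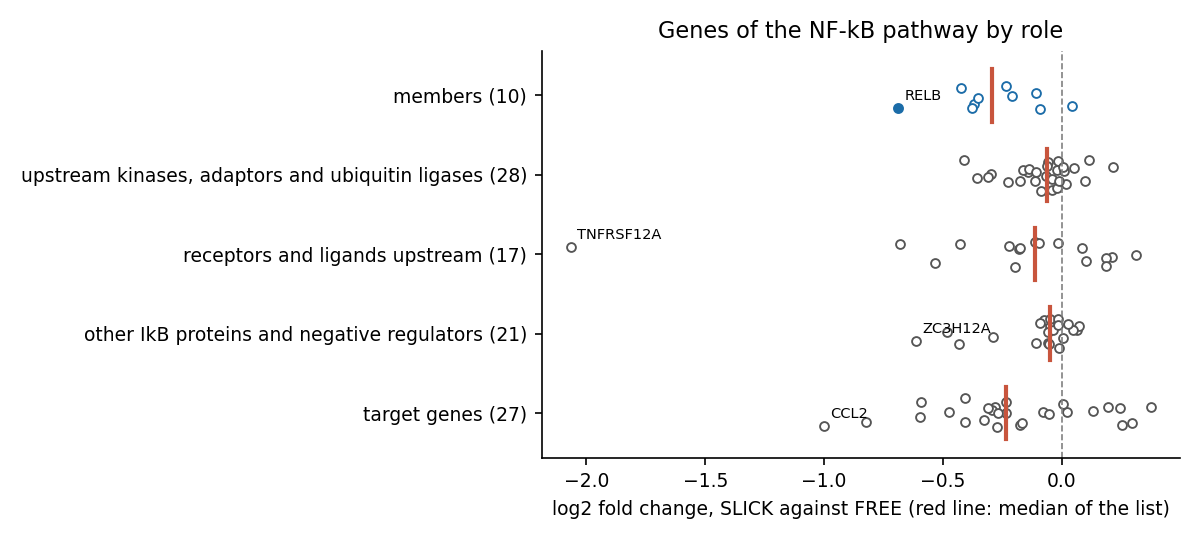
Log2 fold change from the authors' deposited table, SLICK against FREE, for the members and for 4 lists of pathway genes (1 point per gene, filled where the adjusted p was under 0.05; red line, median). RELB is the 1 filled point, and the list medians run from -0.29 for the members to -0.05 for the other IkB proteins and negative regulators.

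Markers of the cell types in liver were read beside these values. The hepatocyte markers had a median average level of 12.2 log2 CPM per the authors' deposited table, with the albumin gene ALB at 15.9, the highest level of any gene there. The 9 cholangiocyte markers measured all had negative log2 fold changes, with a median of -0.69, and 6 had an unadjusted p under 0.05 per the authors' deposited table. Of these, CLDN4 had the smallest p (log2 fold change -1.67, adjusted p = 0.0599). The cholangiocyte markers KRT19 (-0.03, interval -0.47 to 0.41) and ANXA4 (-0.05, interval -0.27 to 0.17) lay near 0. All 6 neutrophil markers measured, of 8 listed, were negative as well. Their median was -0.43, and 3 had an unadjusted p under 0.05 per the authors' deposited table. TREM1 had the smallest p (log2 fold change -1.30, interval -2.27 to -0.32, adjusted p = 0.174), and S100A8 was near 0 at -0.10. The neutrophil markers were mostly low, with a median average level of 1.39 log2 CPM, TREM1 lowest at -1.04 and FCGR3A highest at 6.15. The median was 0.35 for 10 hepatocyte markers, of which 5 were higher at an unadjusted p under 0.05, with CYP2E1 at 0.81 (adjusted p = 0.0847) per the authors' deposited table. Medians were 0.09 for 10 Kupffer cell and macrophage markers, 0.08 for 11 T and NK cell markers and 0.09 for 8 B and plasma cell markers per the authors' deposited table. They were 0.12 for 8 endothelial markers and -0.15 for 9 stellate cell and fibroblast markers, of which 7 were negative and 2 had an unadjusted p under 0.05. The genes with the smallest p of these 5 lists had log2 fold changes of -0.28 (CD68), 0.14 (CD3D), -0.35 (JCHAIN), 0.12 (TEK) and -0.54 (LUM) per the authors' deposited table. Of the macrophage markers, 1 was lower and 0 higher at an unadjusted p under 0.05. Of all 10 macrophage values, 4 were negative and 6 positive. Of the B and plasma cell markers, 2 were lower and 0 higher: JCHAIN and MZB1 (log2 fold change -0.50), both markers of plasma cells. Over that list, 3 values were negative and 5 positive, so its median does not describe all of its genes. No marker of the 8 lists passed an adjusted p of 0.05. The cholangiocyte, neutrophil and stellate cell medians thus had the sign of the member median, and the hepatocyte, macrophage, T and NK cell, B and plasma cell and endothelial medians had the opposite sign. The stellate cell, macrophage, T and NK cell, B and plasma cell and endothelial medians were small. Each was smaller in size than the median implied standard error of its genes (0.13 to 0.20), so their signs say little. The part of these cell types in the value of RELB was not tested, and their summed level by animal is not used here.

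**Figure D4:**
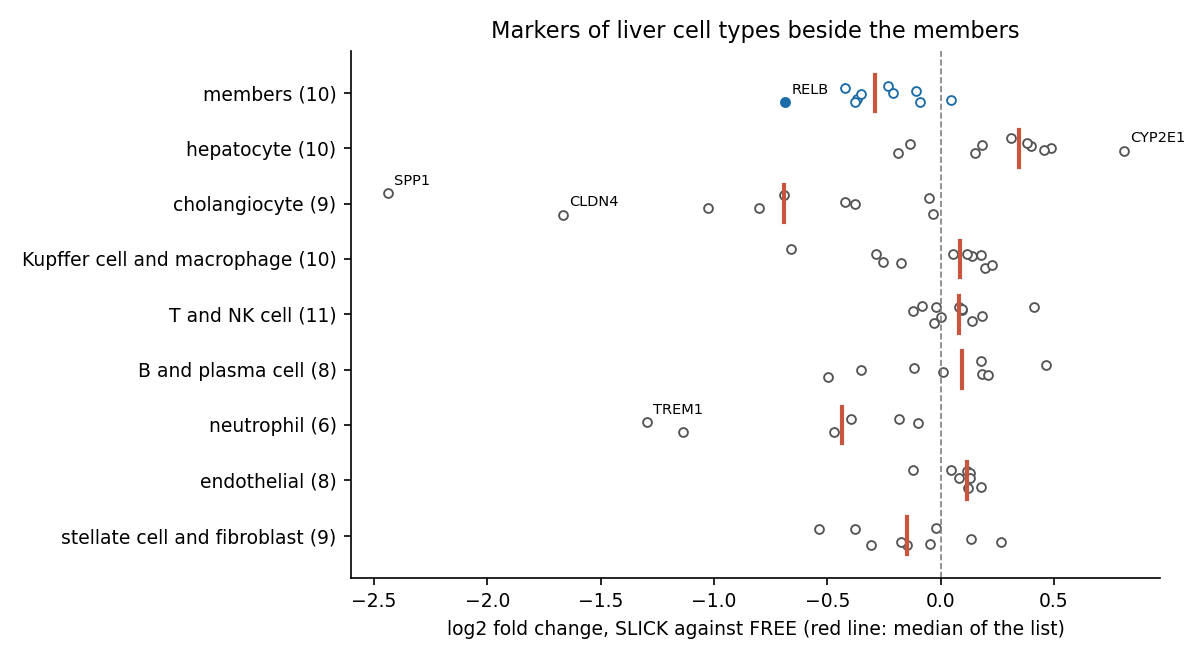
Log2 fold change from the authors' deposited table, SLICK against FREE, for the members and for markers of 8 liver cell types (1 point per gene, filled where the adjusted p was under 0.05; red line, median). The cholangiocyte median is -0.69, the neutrophil median -0.43, the hepatocyte median 0.35 and the member median -0.29.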

How the data were processed

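Liver RNA was sequenced from TruSeq or SMARTer libraries, per the labels' protocols. Per the submitters' processing notes, edgeR, Subread, featureCounts, HISAT2 2.1.0 and the ARS-UCD1.2 build were used, with no role stated. The SMARTer count table was made with featureCounts 1.6.2, Ensembl release 100 gene models and a minimum mapping quality of 10 with strand-aware counting, per the file headers. Counting of TruSeq reads is not given in the sources used.

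For slick against free, the authors deposited p-values and their adjusted values per gene, with the F score, the log2 fold change and the mean level in log2 CPM. Exon length is another deposited value, of no sample. All 70 library columns in the 4 tables are headed by animal numbers absent from the labels, and none was used. Depth per sample is therefore not reported, and replicate spread enters only through the authors' F.

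Of 14246 rows, 85 repeat a gene, and 14161 genes were kept. Ranks, counts and shares of all genes are over these 14161. The deposited adjusted p-values were not computed over these genes alone: for RELB, 0.0486 was deposited and a Benjamini-Hochberg adjustment over the 14161 gave 0.0452. The deposited F and p imply 18.66 denominator degrees of freedom in 500 genes examined. A standard error was computed as the size of the log2 fold change over the root of F, and the 95% interval from the t distribution with those degrees of freedom, unadjusted for the number of genes. Both are approximate, since the authors' fold changes may be shrunken, and the effect of this on the intervals was not tested. The level per kb is the average CPM over the exon length.

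The members and lists were chosen with earlier results of these data known. The genes named are all members, the 4 with the smallest p of each pathway list and the 1 with the smallest p of each cell type list. IKK subunits, BIRC2, ALB, MZB1, S100A8, FCGR3A, KRT19 and ANXA4 were added after their values were seen. A planned search of promoters was not run, and no sequences were used. The software was scipy 1.17.1, pandas 2.3.3 and numpy 2.4.6 under Python 3.11.15.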

Additional observations from a re-analysis of the deposited data

How the results depend on the processing

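The number of members called was 1 with the deposited adjusted p at 0.05, with a Benjamini-Hochberg adjustment over the 14161 genes, and with genes averaging at least 0 log2 CPM; it was RELB each time, with an adjusted p of 0.0452 and 0.0451 under these alternatives. At an adjusted p of 0.10 it was 2 (RELB and NFKB2), while all genes called went from 71 to 392, or 2.77%. Of these 392 genes, 275 were lower and 117 higher in SLICK. Pathway genes called went from 0 to 5 of 93, all 5 lower in SLICK. With the Benjamini-Hochberg adjustment over the 14161 genes, or with the level filter, 1 pathway gene was called in each case. It was TNFRSF12A, with an adjusted p of 0.0473 and 0.0480. The deposited adjusted p was higher for TNFRSF12A (0.0511) and for RELB (0.0486). The authors' values were thus not adjusted over these 14161 genes alone, and the added call rests on the changed adjustment. Centring the fold changes on the median of all genes, or within 10 classes of average level, gave 20 values for the members. Of these, 19 kept their direction and side of the threshold and 0 reversed; RELB kept its direction but lost its call within level classes, at -0.65 log2 units (adjusted p = 0.0552). The median of its level class, -0.04, was subtracted there, and the same adjustment gave 0.0452 without centring. Why that class median lay below 0 was not tested. The median of the members stayed between -0.29 and -0.28.

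No paired analysis was possible because the library columns carry no replicate numbers, and the labels define no pairs. SLICK and FREE are different daughters, and the replicate numbers in the labels only count animals within a group. The library columns are headed by animal numbers absent from the labels. The planned fit of the raw counts with sire and the leaving out of single animals were therefore not run. Whether 1 animal carries the difference in RELB was thus not tested. The planned promoter search was not run.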
